A study of Mus musculus with 8 samples.

Results

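The MHC class I presentation genes were followed as 9 members chosen by name: H2-K1 and H2-D1, B2m, Tap1, Tap2, Tapbp, Psmb8, Psmb9 and Nlrc5. All 9 were found among the 13305 genes of the count table once its Ensembl identifiers had been matched to GENCODE M21 symbols. MHC class I molecules display peptides from the inside of a cell to CD8+ T cells and are also read by NK cells. Immunoproteasome subunits cut proteins into peptides, the TAP transporter carries these into the endoplasmic reticulum, tapasin holds the empty heavy chain beside the transporter, and the loaded heavy chain leaves for the surface together with beta-2 microglobulin. Interferons induce most of these genes, and NLRC5, a relative of the class II transactivator CIITA, drives the promoters of several of them.

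RNA came from whole bone marrow (BM) of 8 C57BL/6N mice, with 1 library per mouse. All mice carried Mx1-Cre, a heterozygous loss of the DNA methyltransferase gene Dnmt3a (Dnmt3a+/-) and Flt3-ITD, an activating duplication in a receptor tyrosine kinase, on both alleles (Flt3ITD/ITD). They differed in Gab2, which encodes a docking protein downstream of such receptors: 3 were Gab2+/+ (AML WT), 2 Gab2+/- (AML HET) and 3 Gab2-/- (AML KO). There was no group without Flt3-ITD and Dnmt3a loss, the labels give no age, and Mx1-Cre is itself an interferon-responsive transgene that was active in these mice without induction according to the study's text. In whole BM, fewer cells of a type and less RNA per cell cannot be told apart.

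Each library held between 28009258 and 39266815 counts on genes, and no member fell below 1206 counts in any mouse, so that the spread between mice rather than counting error limited the comparisons. Levels are given as CPM, counts scaled to the normalized library size. Gab2 itself, the check of the labels, was at 93.9, 68.5 and 61.6 CPM in AML WT, at 55.8 and 50.8 CPM in AML HET and at 35.0, 47.2 and 40.2 CPM in AML KO mice. The groups did not overlap, and AML KO differed from AML WT by −0.87 on the log2 scale (SE 0.18, adjusted p = 0.0420). Adjusted p-values of genes come from the quasi-likelihood test of edgeR and were corrected over all genes by the Benjamini-Hochberg method. In 8 of 18 alternative fits Gab2 passed the threshold of 0.05, and the knockout allele leaves part of the gene in place. The comparisons with AML WT share its 3 mice, and markers of several blood lineages moved with the genotype. Against AML WT, 9 of 11 listed erythroid, 10 of 10 megakaryocyte and 6 of 10 mature neutrophil markers were called higher in AML KO. This call is an adjusted p under 0.05 by edgeR, which 2.09% of all genes reached. Every marker of these lists had a log2 fold change above 0. The summed level of the mature neutrophil list ran from 1279 to 4669 CPM in AML WT, from 5376 to 6050 in AML HET and from 10400 to 17060 in AML KO mice, and no marker of these lists was at 0 in any mouse. The part of these cells in the members' levels was not tested. T and NK cell markers come in part from the cells that read class I. Their sum was 113 to 166 CPM in AML WT, 146 to 187 in AML HET and 145 to 179 in AML KO mice. Nkg7 made up much of this sum, with 79.6, 73.4 and 76.4 CPM in AML WT and 98.0, 106.5 and 82.5 CPM in AML KO mice. The median log2 difference of these markers from the AML WT mean was −0.815, −0.044 and 0.966 in AML WT mice. It was 0.957 and 0.373 in AML HET and 0.347, 0.642 and 0.502 in AML KO mice. None of 14 was called by edgeR, DESeq2 or limma-voom. Between AML KO and AML WT, 3 had an unadjusted p under 0.05 by edgeR, beside 17.7% of all genes.

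Most of the members sit together on chromosome 17 (7 of 9), in the MHC. In GENCODE M21 coordinates (GRCm38), Tapbp lies at chr17:33915899-33929292 and H2-K1 at chr17:33996017-34000347, followed by the block of Psmb9 (chr17:34181987-34187764), Tap1 (chr17:34187553-34197225), Psmb8 (chr17:34197721-34201454) and Tap2 (chr17:34203527-34216321). H2-D1 (chr17:35262730-35267499) lies 1262.4 kb beyond H2-K1. B2m is on chromosome 2 (chr2:122147686-122153083) and Nlrc5 on chromosome 8 (chr8:94434356-94527272). The RefSeq start sites of Tap1 and Psmb9, on opposite strands, are 226 bases apart. In GENCODE M21 the 2 genes overlap. They share 212 exon bases, 3.87% of those of Tap1 and 5.79% of those of Psmb9. The strand setting of the counting is not given in the sources used here, so that reads there may be mixed.

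Promoter sequences from 250 bases before to 50 bases after the start site were found for 7 members in RefSeq (GRCm38.p6). They are shown for the heavy chains and B2m because these 3 promoters share elements that the other 4 lacked in this arrangement: a kappaB element, an interferon regulatory factor (IRF) element, and TGACG followed by ATTGG. In the stretches below the capitals mark, in order, the kappaB match (GGG, any 2 bases, TT, any base, CC) and the IRF-like match (GAA, any 2 bases, GAAA) for H2-K1 and H2-D1, the IRF match (GAAA, any 2 bases, GAAA) and then the kappaB match for B2m, and in each the TGACG and ATTGG letters. Matches on either strand were counted, so that some are printed as their reverse complement. The H2-K1 stretch is chr17:34000354-34000463 on the minus strand, the H2-D1 stretch chr17:35262918-35263027 on the plus strand and the B2m stretch chr2:122147543-122147643 on the plus strand.
H2-K1: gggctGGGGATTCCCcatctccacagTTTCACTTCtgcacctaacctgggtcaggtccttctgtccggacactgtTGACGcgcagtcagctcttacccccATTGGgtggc
H2-D1: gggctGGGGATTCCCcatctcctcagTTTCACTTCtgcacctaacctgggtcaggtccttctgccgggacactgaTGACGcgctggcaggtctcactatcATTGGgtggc
B2m: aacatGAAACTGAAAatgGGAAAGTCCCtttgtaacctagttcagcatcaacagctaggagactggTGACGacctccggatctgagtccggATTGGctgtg

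In all 3, the first base of TGACG lies 25 bases before the first base of ATTGG, the spacing of the X2 and Y boxes that class I promoters are known for. Over all 32851 promoters of the table, 31 (0.0944%) held these letters at this spacing, and among the 14 other class I heavy chains with a promoter only H2-M3 did. TGACG alone was in 20.8% of promoters and ATTGG or its complement CCAAT in 37.4%, while the kappaB pattern was in 4.79%, the IRF pattern in 3.44% and its shorter IRF-like form, which overlaps it, in 7.52%. The H2-K1 and H2-D1 promoters were identical at 127 of 139 aligned bases (91.4%). Psmb8 held a match to the GAS pattern (TTC, any 3 bases, GAA), found in 8.3% of promoters, 97 bases before its start. A match is a description of the letters and not a binding site.

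The heavy chains and beta-2 microglobulin were among the most abundant transcripts of AML BM. Per kilobase of exon, B2m averaged 1310 CPM per kb over the 8 mice, H2-D1 742 and H2-K1 493, which placed them at the percentiles 99.8, 99.5 and 99.3 of 13266 genes with a known exon length. Tapbp (90.2 CPM per kb), Psmb8 (72.3), Psmb9 (48.8), Tap1 (47.4) and Tap2 (31.8) followed. Exon length here counts every annotated exon base of a gene once. The longest coding transcripts are shorter, with 1352 against 3660 bases for Psmb9, 2953 against 5476 for Tap1 and 2898 against 3628 for Tapbp. The order of the members and the distances between them therefore depend on the length used. By exon length, Psmb9 and Tap1 did not differ beyond their spread, with 42.5 ± 13.8 and 44.7 ± 14.1 CPM per kb (SD, n = 3) in AML WT. Nlrc5 was far lower, at 7.49 CPM per kb and the percentile 56.0. Part of the heavy chain level is uncertain, since 8.79% of all 50-base windows of the H2-K1 transcript and 14.32% of those of H2-D1 also occur in transcripts of other genes, for H2-K1 mostly in H2-D1. No such window was shared for B2m, Psmb8, Psmb9 or Nlrc5.

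The main question was whether class I presentation genes differ with the Gab2 genotype. None of the 9 members passed an adjusted p of 0.05 between AML KO and AML WT in edgeR's test, against 278 of 13305 genes (2.09%), of which 235 were higher. DESeq2 and limma-voom also called none of the members. Of all genes, DESeq2 called 730 of 13297 and limma-voom 266 of 13305. At an unadjusted p under 0.05 there was 1 member, Tap2, while 17.7% of all genes reached it. The median log2 fold change of the members was 0.25, beside −0.02 for all genes. Of the 9 values, 7 were above 0 (48.1% of all genes were) and 2, B2m and Nlrc5, below.

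**Figure D1:**
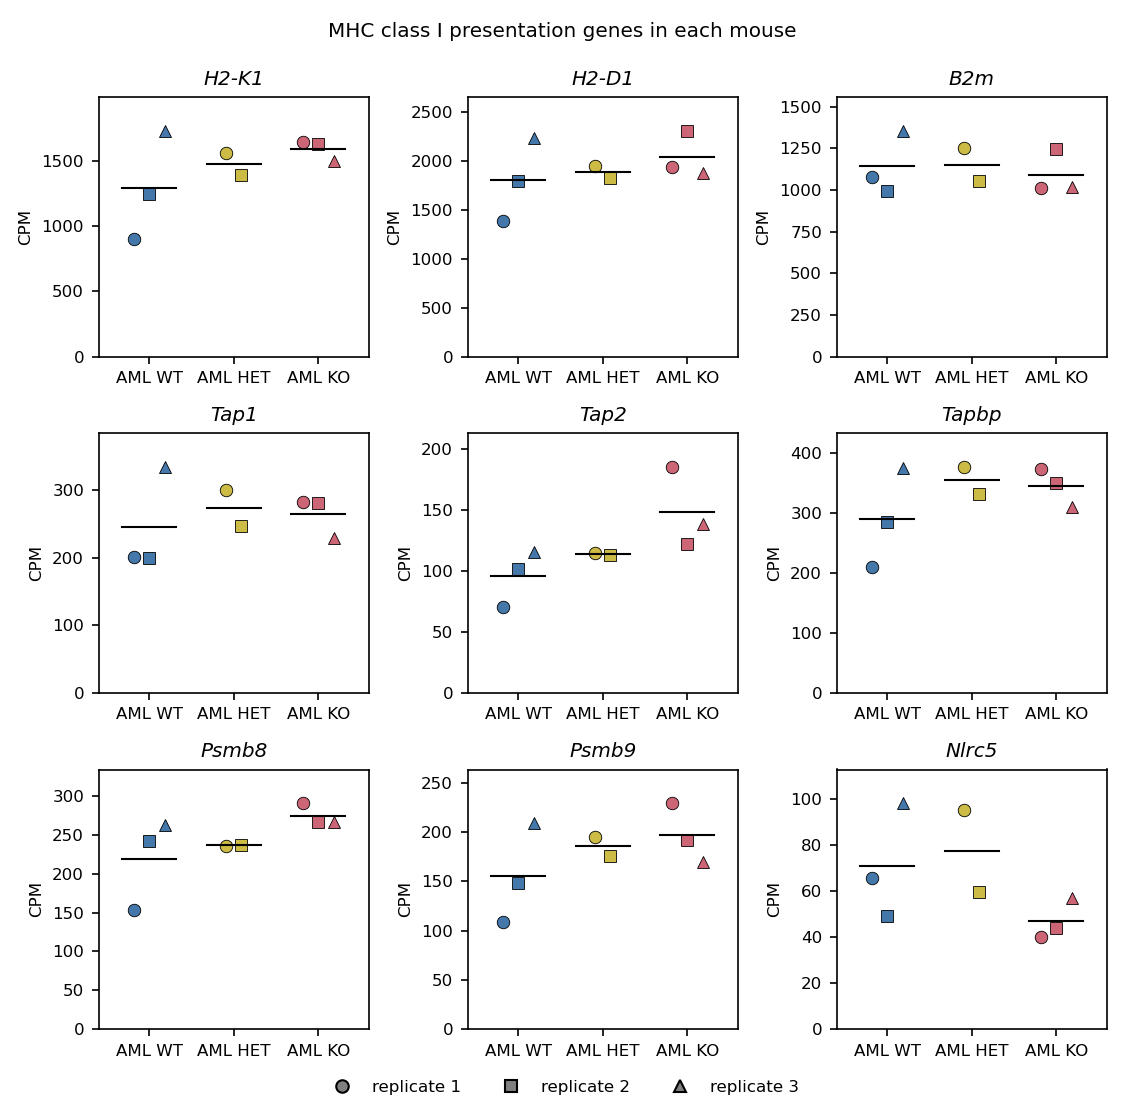
Level of each of the 9 members in CPM (vertical axis, from 0) in each mouse, by genotype; symbols give the replicate number and lines the group means. AML WT replicate 3 is the highest of the AML WT mice in all 9 panels, and AML KO mice lie above all AML WT mice only for Tap2 and Psmb8.

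H2-K1 and H2-D1 encode the classical heavy chains, which hold the peptide. H2-K1 was at 897, 1242 and 1728 CPM in AML WT, at 1562 and 1389 CPM in AML HET and at 1642, 1625 and 1497 CPM in AML KO mice. The AML KO and AML HET values all fell inside the range of the AML WT mice. Between AML KO (1588 ± 79.3 CPM, SD, n = 3) and AML WT (1289 ± 417 CPM, SD, n = 3) the log2 fold change was 0.30 (SE 0.21, 95% interval −0.17 to 0.78, adjusted p = 0.442 by edgeR). H2-D1 was at 1385, 1792 and 2236 CPM in AML WT, at 1949 and 1828 CPM in AML HET and at 1942, 2308 and 1874 CPM in AML KO mice. Its groups overlapped too, with a log2 fold change of 0.18 (SE 0.18, adjusted p = 0.598 by edgeR). Without AML WT replicate 1 the values of H2-K1 and H2-D1 were 0.09 and 0.01, and without AML WT replicate 3 they were 0.57 and 0.36.

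B2m encodes the light chain shared by all classical class I molecules. It was at 1078, 995 and 1355 CPM in AML WT, at 1250 and 1057 CPM in AML HET and at 1011, 1249 and 1016 CPM in AML KO mice. The highest mouse was 1.36 times the lowest in AML WT, the narrowest span of any member there, and the groups covered the same range. AML KO differed from AML WT by −0.07 on the log2 scale, with a 95% interval of −0.42 to 0.29 (adjusted p = 0.839 by edgeR).

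Tap1 and Tap2 encode the 2 subunits of the peptide transporter. Tap2 was at 70.3, 102 and 115 CPM in AML WT, at 115 and 114 CPM in AML HET and at 185, 122 and 139 CPM in AML KO mice. Each AML KO mouse was above each AML WT and AML HET mouse, and its log2 fold change against AML WT was the largest of the 9 members at 0.64 (SE 0.20, 95% interval 0.18 to 1.09). Its unadjusted p was 0.0118 and its adjusted p 0.185, so the difference did not pass the test over all genes (adjusted p between 0.0696 and 0.525 in 18 alternative fits). GENCODE places 14.1% of the Tap2 exon bases over those of Gm15821 on the other strand, and the strand setting of the counting is not given in the sources used here, so that their reads may be mixed. Gm15821 itself differed by 0.04 on the log2 scale (SE 0.44, adjusted p = 0.970 by edgeR). Tap1 was at 201, 200 and 334 CPM in AML WT, at 301 and 247 CPM in AML HET and at 283, 281 and 230 CPM in AML KO mice, with the AML KO values inside the AML WT range. Its log2 fold change was 0.11 (SE 0.21, adjusted p = 0.780 by edgeR) and turned to −0.03 when libraries were scaled to 8 pan-leukocyte genes, and it was −0.02 without AML WT replicate 1 and 0.40 without AML WT replicate 3.

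Tapbp, which encodes tapasin, was at 211, 286 and 376 CPM in AML WT, at 377 and 333 CPM in AML HET and at 375, 351 and 311 CPM in AML KO mice. All AML HET and AML KO mice lay above the AML WT mean of 291 CPM, and none was higher than AML WT replicate 3 except AML HET replicate 1, by about 1 CPM. For AML KO against AML WT the log2 fold change was 0.25 (SE 0.19, adjusted p = 0.488 by edgeR), with 0.05 without AML WT replicate 1 and 0.48 without AML WT replicate 3. An antisense gene, Gm19412, lies over 24.92% of the Tapbp exon bases and has no row in the table. On the same strand, Zbtb22 shares 4.11% of the Tapbp exon bases.

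Psmb8 and Psmb9 encode catalytic subunits that replace their constitutive counterparts in the immunoproteasome. Psmb8 was at 153, 243 and 263 CPM in AML WT, at 236 and 238 CPM in AML HET and at 291, 266 and 267 CPM in AML KO mice. The groups AML KO and AML WT did not overlap, although the lowest AML KO mouse (266.1 CPM) was barely above the highest AML WT mouse (263.0 CPM), and the log2 fold change was 0.32 (SE 0.18, adjusted p = 0.359 by edgeR). An antisense gene, Gm20496, lies over 14.73% of the Psmb8 exon bases and has no row in the table, so that its reads may be counted in Psmb8. Psmb9 was at 109, 149 and 209 CPM in AML WT, at 195 and 176 CPM in AML HET and at 229, 192 and 169 CPM in AML KO mice. Here the groups overlapped, with a log2 fold change of 0.34 (SE 0.22, adjusted p = 0.405 by edgeR). Psmb8 and Psmb9 were at 0.11 and 0.13 without AML WT replicate 1, and at 0.47 and 0.61 without AML WT replicate 3. With Tap2 and Psmb8, 2 of 9 members had no overlap between AML KO and AML WT, as did 22.1% of all genes, 12.3% with AML KO above and 9.83% with AML KO below.

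Nlrc5 encodes a regulator of class I genes. It was at 65.7, 49.2 and 98.0 CPM in AML WT, at 95.3 and 59.7 CPM in AML HET and at 39.9, 43.9 and 56.9 CPM in AML KO mice. The AML KO mice were below both AML HET mice but overlapped with AML WT, and the log2 fold change against AML WT was −0.60 (SE 0.27, 95% interval −1.20 to 0.00, unadjusted p = 0.0511, adjusted p = 0.283 by edgeR). Without AML WT replicate 3 this value was −0.29. It ran from −0.80 to −0.29 over 18 alternative fits, a correction for GC content and exon length among them.

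**Figure D2:**
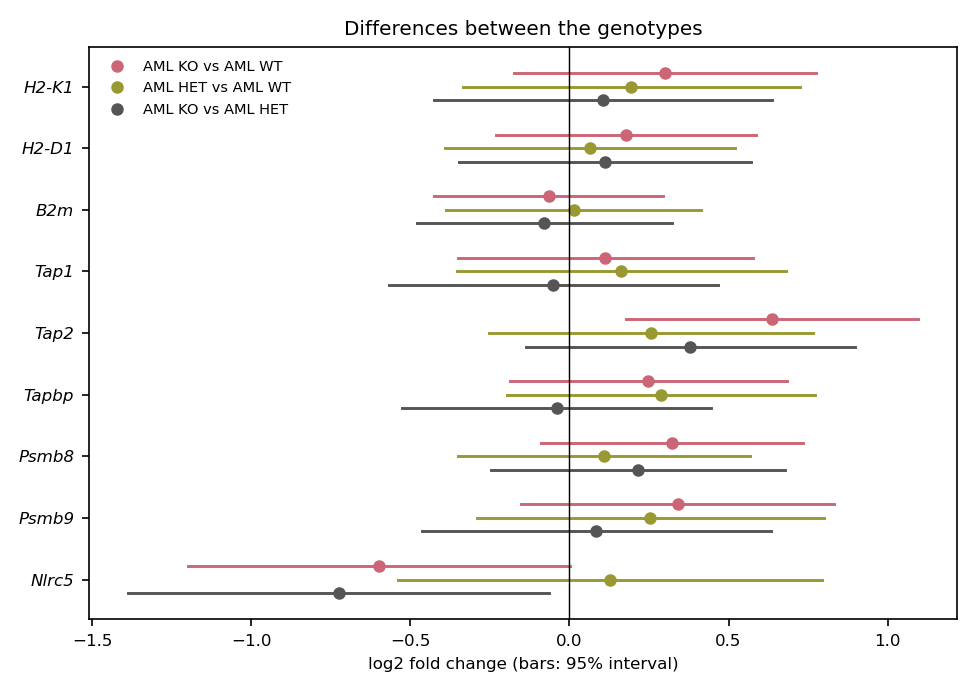
Log2 fold change of each member (points) with its 95% interval (bars) between AML KO and AML WT, AML HET and AML WT, and AML KO and AML HET, from edgeR's fit over 8 mice. The intervals include 0 except for Tap2 between AML KO and AML WT and Nlrc5 between AML KO and AML HET, and neither passes the adjusted threshold.

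The comparison of AML HET with AML WT asks what the loss of 1 Gab2 allele does. None of the members passed the test between AML HET and AML WT in edgeR, DESeq2 or limma-voom, 0 of 9 had an unadjusted p under 0.05 (2.47% of all genes did), and 3 of 13305 genes (0.0225%) were called. All 9 log2 fold changes were above 0, as for 48.5% of all genes, from 0.01 for B2m to 0.29 for Tapbp (95% interval −0.20 to 0.77), with a median of 0.16 beside −0.01 for all genes. Without AML WT replicate 1 the members' median was 0.04, and H2-K1, H2-D1 and Psmb8 were at −0.006, −0.09 and −0.094. Without AML WT replicate 3 the median was 0.45. None of the members separated the groups, while 18.1% of all genes did. With 2 AML HET mice, the widest interval was that of Nlrc5, from −0.54 to 0.79.

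Between AML KO and AML HET, none of the 13305 genes was called by edgeR or limma-voom (77 by DESeq2, no member among them), and 780 genes (5.86%) had an unadjusted p under 0.05. Nlrc5 was 1 of these, with a log2 fold change of −0.72 (SE 0.30, unadjusted p = 0.0350, adjusted p = 0.785 by edgeR). Tap2 differed by 0.38 (SE 0.23, 95% interval −0.14 to 0.90). Tap2 and Psmb8 were higher and Nlrc5 lower in each AML KO than in each AML HET mouse, which makes 3 of 9 members without overlap, beside 24.2% of all genes.

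The spread among AML WT mice set the limits of these comparisons. AML WT replicate 3 was the highest AML WT mouse for 9 of 9 members, as it was for 34.5% of all genes, and AML WT replicate 1 was the lowest for 6, as for 39.6% of all genes. From the lowest to the highest AML WT mouse the members spanned 1.36-fold to 1.99-fold (median 1.72, against 1.35 for all genes), and from the lowest to the highest AML KO mouse 1.09-fold to 1.51-fold (median 1.23, against 1.36 for all genes). All 9 members spanned more in AML WT than in AML KO, which held for 47.0% of all genes. Expressed as the median of the members' log2 differences from the AML WT mean, AML WT mice were at −0.42, −0.00 and 0.41, AML HET mice at 0.33 and 0.15, and AML KO mice at 0.40, 0.32 and 0.14. AML KO and AML HET mice lay between the middle and the highest AML WT mouse. Without AML WT replicate 1 the members' median log2 fold change in AML KO was 0.05, and without AML WT replicate 3 it was 0.47. AML WT replicate 1 and AML KO replicate 1 also stood apart by gene length. In the first, genes of at least 6617 exon bases stood 0.56 above genes of at most 2579 bases (log2). In the second they differed from them by −0.49, and in the other mice by −0.081 to 0.065. Of the members, only Nlrc5 (8493 exon bases) is among these long genes, and H2-D1 and B2m are among the short ones. The fit corrected for GC content and exon length kept the sign of the Nlrc5 difference between AML KO and AML WT. The part of gene length alone in the values of Nlrc5 was not tested. After a correction for GC content and exon length the members' median was 0.14, and with scaling to the pan-leukocyte genes, which put the median of all genes at −0.16, it was 0.115.

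Interferon-induced genes were highest in AML WT replicate 3 and AML HET replicate 1. In 24 of 25 type I interferon-induced genes and 13 of 14 interferon gamma-induced GTPases these were the top mice of the 8, as in 4.96% of all genes and in 4 of 9 members. Ifit3, an interferon-induced antiviral gene, was at 59.7 CPM in AML WT replicate 3 and 51.7 CPM in AML HET replicate 1, and between 4.74 and 14.9 CPM in the other mice. Nlrc5 was at 98.0 and 95.3 CPM in this pair of mice and at 65.7 CPM or below in the others. The median of the type I list stood at 1.497 and 1.229 in these mice (log2 difference from the AML WT mean) and from −0.90 to −0.15 in the other 6.

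**Figure D3:**
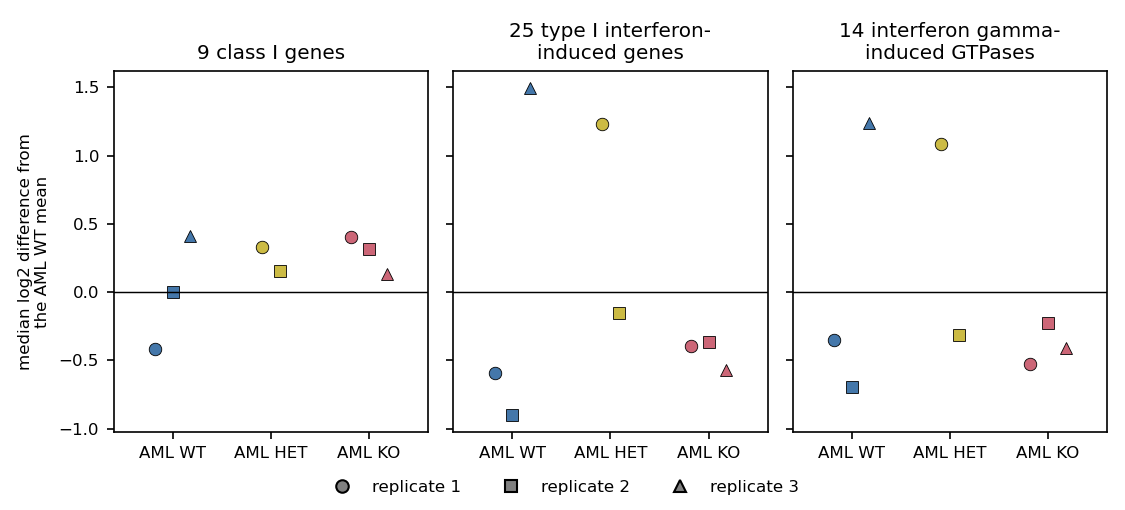
Median log2 difference from the AML WT mean (vertical axis) in each mouse for the 9 members, 25 type I interferon-induced genes and 14 interferon gamma-induced GTPases; symbols give the replicate number. AML WT replicate 3 and AML HET replicate 1 stand at 1.497 and 1.229 in the type I list. The members in AML KO mice are at 0.14 to 0.40. The interferon lists are below 0 in AML KO mice and in AML WT replicates 1 and 2.

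In AML KO mice, the medians of the type I list and of the members lay above those of AML WT replicates 1 and 2. Both lay below those of AML WT replicate 3. The type I list was at −0.39, −0.36 and −0.57 in AML KO and at −0.59, −0.90 and 1.497 in AML WT mice. The members were at 0.40, 0.32 and 0.14, beside −0.42, −0.00 and 0.41. For the GTPases the values were −0.53, −0.22 and −0.41 in AML KO and −0.35, −0.70 and 1.24 in AML WT mice. With AML WT replicate 3 and AML HET replicate 1 left out, the log2 fold changes of AML KO against AML WT were 0.79 for Tap2 and −0.29 for Nlrc5, and no member was called. No list gene of the type I set and none of the GTPases passed the test between AML KO and AML WT by edgeR, DESeq2 or limma-voom. An unadjusted p under 0.05 by edgeR was reached by 3 of 25 and 0 of 14, beside 17.7% of all genes. The part of the interferon response in the members' levels was not tested.

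Ratios within a mouse do not depend on how libraries are scaled, and 8 were compared between AML KO and AML WT by exact two-sided permutation tests, in which 3 mice against 3 cannot go below 0.1. The log2 ratio of H2-K1 to B2m was −0.26, 0.32 and 0.35 in AML WT, 0.32 and 0.40 in AML HET and 0.70, 0.38 and 0.56 in AML KO mice. For H2-D1 to B2m it was 0.36, 0.85 and 0.72 in AML WT, 0.64 and 0.79 in AML HET and 0.94, 0.89 and 0.88 in AML KO mice. Both heavy chains were thus higher relative to their light chain in each AML KO than in each AML WT mouse, by 0.41 and 0.26 on average (exact permutation p = 0.1 each, adjusted p = 0.32 over 8 ratios). Without AML WT replicate 1 the differences were 0.21 and 0.12.

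The ratio of Tap1 to Tap2 was 1.51, 0.97 and 1.53 on the log2 scale in AML WT, 1.38 and 1.12 in AML HET and 0.61, 1.20 and 0.73 in AML KO mice. It was 0.49 lower in AML KO on average, with overlap through AML WT replicate 2 and AML KO replicate 2 (exact permutation p = 0.2, adjusted p = 0.32). None of the 3 pairs of an immunoproteasome subunit and its constitutive counterpart separated the groups. The log2 ratio of Psmb8 to Psmb5 was 1.45 ± 0.08 in AML WT and 1.36 ± 0.17 in AML KO (SD, n = 3, exact permutation p = 0.7), and that of Psmb9 to Psmb6 was 0.01 ± 0.29 and 0.04 ± 0.07 (exact permutation p = 0.9). Psmb10 to Psmb7 was 0.45 ± 0.48 and 0.97 ± 0.24 (exact permutation p = 0.2), with AML WT replicate 1 at −0.10 and all other mice at 0.68 or above. Without AML WT replicate 3, 2 of these 3 pairs had no overlap. With 2 AML WT mice left a separation is easier to reach, and no share over all pairs of genes was computed.

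**Figure D4:**
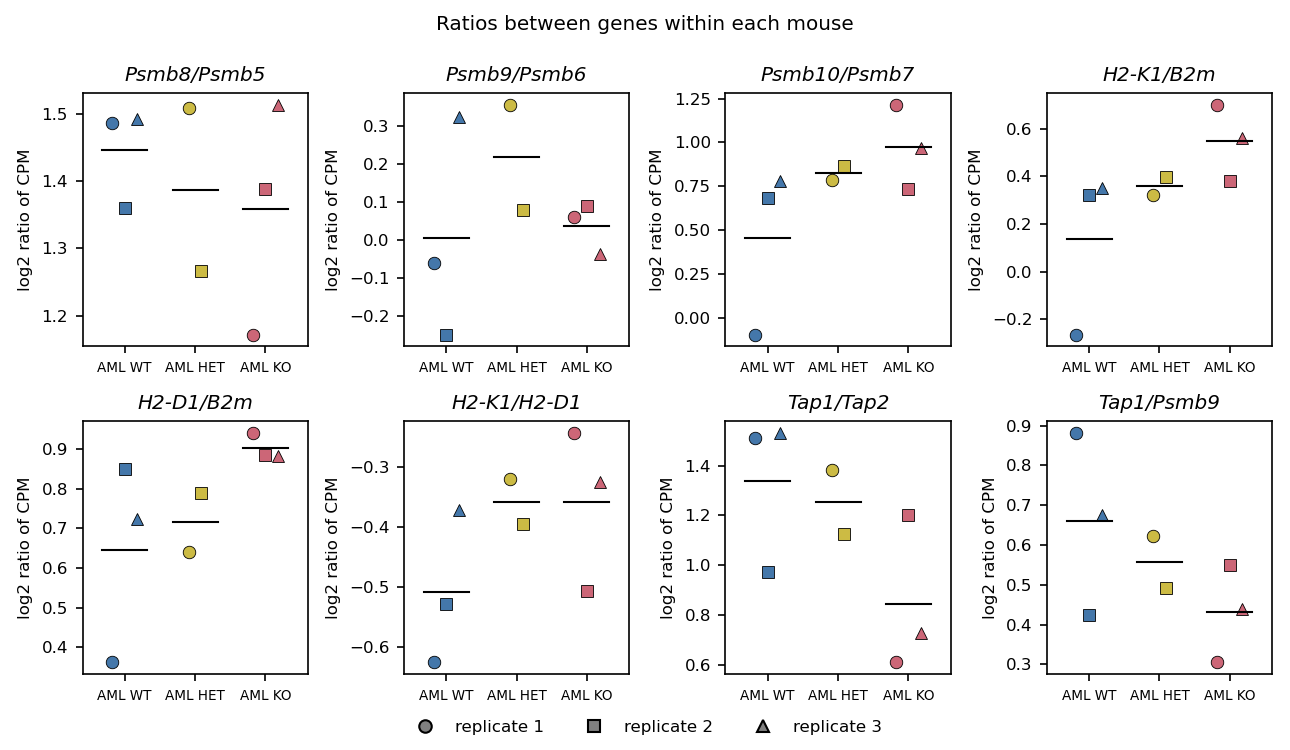
Log2 ratio of CPM between genes of a pair (vertical axis, a separate scale for each panel) in each mouse, by genotype; symbols give the replicate number and lines the group means. AML KO mice are above all AML WT mice for H2-K1 to B2m and H2-D1 to B2m, and the groups overlap in the other 6 panels.

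Other genes of the pathway were described by lists chosen by function. Of 14 other class I heavy chains in the table, none was called between AML KO and AML WT by edgeR or limma-voom and 1, H2-Q10, by DESeq2. Of all genes, DESeq2 called 730 of 13297. An unadjusted p under 0.05 by edgeR was reached by 2 of them, beside 17.7% of all genes. The median log2 fold change of the list was 0.13. H2-Q10, a secreted class I molecule known from liver, had the largest value at 2.10 (SE 0.54, adjusted p = 0.0985 by edgeR) but no more than 6.51 CPM in any mouse, and H2-Q6 was at 0.63 (SE 0.32, adjusted p = 0.330). H2-T23, the mouse Qa-1 gene whose product is a ligand of an inhibitory NK receptor, was at 172, 227 and 405 CPM in AML WT, at 349 and 273 CPM in AML HET and at 324, 291 and 232 CPM in AML KO mice, again with the highest value in AML WT replicate 3. Heavy chain genes resemble each other closely, so their counts are uncertain where reads fit several of them. H2-M3, the non-classical gene that presents formylated peptides and whose promoter shares the TGACG and ATTGG spacing, differed by 0.18 (SE 0.20, adjusted p = 0.617 by edgeR).

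For peptide loading and trimming, 8 of 9 log2 fold changes in AML KO against AML WT were below 0, with a median of −0.28, and 3 had an unadjusted p under 0.05 (17.7% of all genes did), but none was called by edgeR, DESeq2 or limma-voom. Lnpep, an aminopeptidase that trims peptides for cross-presentation in endosomes, had the largest difference of the list at −1.11 (SE 0.45, unadjusted p = 0.0335, adjusted p = 0.254 by edgeR). It was at 120.3, 51.4 and 35.5 CPM in AML WT and at 18.5, 46.8 and 30.9 CPM in AML KO mice, so that the groups overlapped and AML WT replicate 1 stood far above the rest. Canx, the chaperone calnexin that receives new heavy chains, was at 658, 634 and 567 CPM in AML WT and at 401, 520 and 445 CPM in AML KO mice, without overlap (log2 fold change −0.44, SE 0.14, unadjusted p = 0.00983, adjusted p = 0.169 by edgeR). Erap1, which trims peptides in the endoplasmic reticulum, differed by −0.46 (SE 0.20, adjusted p = 0.280) and Calr, the chaperone calreticulin, by −0.28 (SE 0.18, adjusted p = 0.398). Lnpep and Erap1 are both among the genes of at least 6617 exon bases. Such long genes stood above short ones in AML WT replicate 1 and below them in AML KO replicate 1. Erap1 was highest in the first, at 125.2 CPM, and lowest in the second, at 56.8 CPM. The part of gene length in the values of Lnpep and Erap1 was not tested. None of the 4 remaining immunoproteasome and PA28 genes was called by these tools (0 had an unadjusted p under 0.05), and their 4 values were above 0 (median 0.20). Psmb10, the third inducible catalytic subunit, was at 0.45 (SE 0.24, adjusted p = 0.333), and the constitutive Psmb5 at 0.42 (SE 0.22, adjusted p = 0.331). Of 11 other subunits of the 20S core none was called by these tools (0 with an unadjusted p under 0.05), with a median of 0.05.

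Among 25 regulators of class I genes, none was called between AML KO and AML WT by edgeR, DESeq2 or limma-voom, 4 had an unadjusted p under 0.05 (17.7% of all genes did), and 7 were above 0, where 48.1% of all genes were (median −0.11). The 4 had lower values in AML KO, and their share is near that of all genes. Jak2, a kinase of the interferon gamma receptor, had a log2 fold change of −0.48 (SE 0.15, unadjusted p = 0.00952, adjusted p = 0.168 by edgeR). The receptor subunit genes Ifngr1 and Ifnar1 and the kinase gene Tyk2 were the other 3, at −0.43, −0.31 and −0.31. Irf1, the interferon-induced factor that binds IRF elements, differed by 0.01 (SE 0.26, adjusted p = 0.990). Rfx5, part of the complex on which NLRC5 and CIITA assemble, was at −0.27 (SE 0.23, adjusted p = 0.537).

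Of class II genes and their regulator, 10 of 10 log2 fold changes in AML KO against AML WT were below 0. Their median was −0.80, and 48.1% of all genes were above 0. In this list 1 gene, Ciita, passed the test by edgeR and limma-voom (5 by DESeq2). Of all genes, 2.09% passed it by edgeR and 730 of 13297 by DESeq2. Ciita was at 54.7, 58.1 and 67.4 CPM in AML WT, at 43.9 and 33.5 CPM in AML HET and at 20.01, 33.5 and 16.7 CPM in AML KO mice. The groups AML WT and AML KO did not overlap, and the log2 fold change was −1.36 (SE 0.25, adjusted p = 0.0233 by edgeR), past the threshold in 13 of 18 alternative fits. Nlrc5 differed by −0.60 in the same comparison without passing it, and the difference between the 2 regulators was not tested. The dendritic cell marker Itgax, from a cell type rich in class II, also fell, by 1.10 on the log2 scale (SE 0.23, adjusted p = 0.0457 by edgeR), and 9 of 10 dendritic cell markers were below 0. DESeq2 called 3 of these markers, Itgax among them, and limma-voom none. The summed level of these markers was 449 to 783 CPM in AML WT, 463 to 623 in AML HET and 410 to 527 in AML KO mice.

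Class I and class II genes are neighbours in this part of chromosome 17. Within 150 kb of the Tap1 start lie 17 genes of the table, chosen by position, of which 4 are members. None of the 17 was called between AML KO and AML WT by edgeR or limma-voom and 3 by DESeq2, H2-Aa, H2-Ab1 and H2-Eb1. Of all genes, DESeq2 called 730 of 13297. Psmb9, Tap1, Psmb8 and Tap2 had log2 fold changes of 0.34, 0.11, 0.32 and 0.64, while H2-Ab1, H2-Aa and H2-Eb1, which encode the chains of the class II molecules, were at −1.002, −1.12 and −1.18 (adjusted p = 0.177, 0.108 and 0.149 by edgeR). H2-Eb2, a further class II chain gene, had the largest difference of the window at −2.28 (SE 0.88, unadjusted p = 0.0273, adjusted p = 0.244 by edgeR). Of the genes for the molecule that loads class II peptides, H2-DMa and H2-DMb1 were at −0.10 and −0.13, and H2-DMb2 at −0.60 (SE 0.24, unadjusted p = 0.0341, adjusted p = 0.256 by edgeR).

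**Figure D5:**
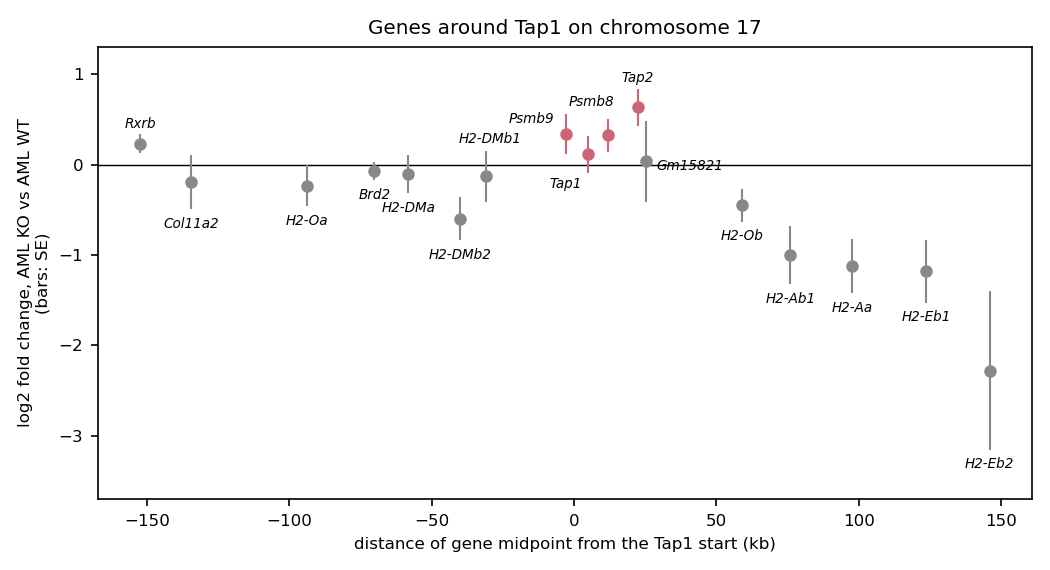
Log2 fold change of AML KO against AML WT (points, with SE as bars) of 17 genes against the distance of their midpoints from the Tap1 start in kb; members are in red. The 4 members lie at 0.11 to 0.64, and the class II genes from H2-Ob onward lie at −0.45 or below.

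Across the 8 mice, H2-K1, Tapbp and Psmb9 followed the other members most closely, with Pearson r of 0.96, 0.96 and 0.93 against the mean of the remaining 8, and Tap1 and H2-D1 came next at 0.90 and 0.86. Psmb8 was at 0.76, Tap2 at 0.60 and B2m at 0.51, and Nlrc5 at 0.01. The 28 pairs without Nlrc5 had a median r of 0.83 and the 8 pairs with it a median of 0.03. These are descriptions over 8 mice of 3 genotypes that share library composition. The genes outside the list with at least 10 CPM that were most like the members' mean were H2-M3 (r = 0.98), Adcy6 (0.97), Ifi35 (0.97), H2-T23 (0.96) and H2-T22 (0.96), out of 9118 genes. Of these 5, H2-M3, H2-T23 and H2-T22 are class I heavy chain genes on chromosome 17, and Ifi35 on chromosome 11 is interferon-induced. By Spearman's rho, 1 of these 5 stayed among the top 5.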

How the data were processed

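Whole BM RNA of 8 mice was sequenced on an Illumina HiSeq4000. The authors deposited raw counts per gene, without normalization, for 13305 genes with at least 106 counts over all mice. The submitters' processing notes name Trimmomatic 0.36, STAR 2.5.2b and mm10; the counting tool, its strand setting and the annotation are not given in the sources used here. Counts that a gene shares with overlapping or near-identical genes may be split or lost by this step. Of the identifiers, 13266 were found in GENCODE M21.

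Counts were normalized with TMM and tested with edgeR 4.0.16 (robust quasi-likelihood, R 4.3.3) over all 8 mice with genotype as the only term. Filtering by expression removed 0 genes, p was adjusted by Benjamini-Hochberg over all genes, and the threshold was 0.05. The fit was tested on simulated data. P-values set the difference between groups against the spread between single mice. Log2 CPM used a prior count of 2, and ratios were tested by exact permutation with SciPy 1.17.1. Promoters were taken from RefSeq (GRCm38.p6). No promoter sequence of Tap2 or Nlrc5 was used here. One gene of the list of class I regulators is counted but not reported here.

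Members and gene lists were chosen with earlier results of these data known. All members, Gab2 and the 5 genes most like the members were named. Genes of the pathway lists, listed genes past the threshold and the 3 largest changes of each list could be named, and not all of them were. Class II genes and neighbours of Tap1 were named by position, and H2-Ob, H2-DMa and the sequence patterns were chosen after their values or letters were seen. Results were recomputed with DESeq2 1.42.0, with limma-voom (limma 3.58.1), other scalings and filters, the replicate number as a block, only the groups compared and each mouse left out. A correction for GC content and exon length, and a fit without AML WT replicate 3 and AML HET replicate 1, were added after seeing the data.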

Additional observations from a re-analysis of the deposited data

How the results depend on the processing

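No member passed the threshold in any comparison under any of 18 alternatives each; the lowest adjusted p was 0.0696, for Tap2 with DESeq2. The median of the members between AML KO and AML WT ranged from 0.05 to 0.47 over the fits without single mice, and between AML HET and AML WT from 0.04 to 0.45. The sign held in all alternatives for 7 of 9 members for AML KO against AML WT, 4 for AML HET against AML WT and 3 for AML KO against AML HET. Of the values that turned sign, which are all log2 fold changes that were not called, the cause was not tested. Scaling to the pan-leukocyte genes moved the median of all genes to −0.16 (AML KO against AML WT) and −0.11 (AML KO against AML HET); it gave −0.026 for Tap1 (AML KO against AML WT), −0.009 for B2m (AML HET against AML WT), and −0.012, −0.004 and −0.040 for H2-K1, H2-D1 and Psmb9 between AML KO and AML HET. The GC and length correction gave −0.17 for B2m between AML HET and AML WT, and −0.018 for H2-D1 and 0.014 for B2m between AML KO and AML HET. Without AML WT replicate 3 and AML HET replicate 1, B2m was at 0.07 between AML KO and AML WT, and B2m, Tap1 and Tapbp were at 0.04, 0.09 and 0.04 between AML KO and AML HET.

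In fits without single mice or without that pair, B2m and Tap1 ranged from −0.175 to 0.078 and from −0.022 to 0.404 between AML KO and AML WT. Between AML HET and AML WT the ranges were −0.006 to 0.473 for H2-K1, −0.090 to 0.259 for H2-D1, −0.113 to 0.166 for B2m, −0.094 to 0.269 for Psmb8 and −0.25 to 0.45 for Nlrc5. Between AML KO and AML HET they were −0.194 to 0.048 for B2m, −0.184 to 0.097 for Tap1, −0.127 to 0.053 for Tapbp and −0.033 to 0.183 for Psmb9. Pairs without overlap between AML KO and AML WT numbered 0 to 2 of 3 immunoproteasome ratios (0 with all mice, 2 without AML WT replicate 3, 1 without AML KO replicate 2) and 2 to 4 of 5 assembly ratios (2 with all mice, 4 without AML WT replicate 2 or AML KO replicate 2). With a mouse left out a separation is easier to reach, and no share over all pairs of genes was computed. Spearman's rho kept 1 of the 5 genes most like the members.

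Deviations from the group means correlated over genes at −0.51 to 0.29 between mice with the same replicate number. Between mice with different numbers they correlated at −0.36 to 0.46. These deviations are taken from means of few mice, so that they cannot tell whether the mice were paired. With the replicate number as a block, 0 members were called in any comparison, the medians were 0.28 (AML KO against AML WT) and 0.31 (AML HET against AML WT), Ciita had an adjusted p of 0.125, and 19 in place of 278 genes were called between AML KO and AML WT. DESeq2 called 730 genes there, and the fit without AML WT replicate 2 called 40.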
